A study of Mus musculus with 6 samples.

Results

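The 10 genes described here belong to the oxidative stress and NRF2 response: Nfe2l2, Slc7a11, Gclm, Gclc, Gsr, Mgst2, Prdx1, Srxn1, Txnrd1 and Nqo1. They were taken by gene symbol and are 10 of the 21761 genes in an RNA-seq table of mouse bone marrow in culture. Expression was given as RPKM, the reads of a gene per kilobase of exon, scaled to the reads of the library. The marrow came from male C57BL/6J mice, and the labels name no genetic change. Each of 3 days had 2 libraries, numbered II and III on day 0, I and II on day 4, and III and IV on day 7. Day 0 was marrow before culture. The other 2 groups had been cultured in RPMI with serum, 2-mercaptoethanol (a reducing thiol) and supernatant of a transfected SP2/0 line that secretes Flt3 ligand, a growth factor for dendritic cell development. Day 4 is labelled as common myeloid progenitors and day 7 as bone marrow derived dendritic cells, and all live cells were taken at both. Whether libraries of 1 day came from separate mice or cultures is not stated in the labels, and the p-values therefore cover the spread among these libraries alone.

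NRF2, the protein of Nfe2l2, is a transcription factor that KEAP1 holds in the cytoplasm and marks for degradation. Electrophiles and oxidants modify cysteines of KEAP1, and NRF2 then enters the nucleus, pairs with small MAF proteins and binds antioxidant response elements (AREs). Its targets import cystine, make and recycle glutathione, run the thioredoxin system and detoxify quinones. Myeloid cells use these systems while their own oxidase and their handling of heme and iron produce oxidants.

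Promoters are shown because AREs are the sites through which NRF2 acts. RefSeq windows on GRCm38.p6, from 250 bases before to 50 after a transcript's start, were found for 8 of the 10 members (10 windows). Gclc and Gsr had no entry. The ARE core was searched on both strands as TGACNNNGC, and a site of the stress factor ATF4 as TGATGNAA. The ARE core was found in windows of 5 members, against 13.99% of the 27025 genes with a window. Because the members were chosen as NRF2 response genes, this contrast is not independent of that choice. The ATF4 letters were found in 1 member, Slc7a11, against 4.511% of those genes. No ARE match overlapped an ATF4 match in these windows. The lines below give the matched stretches 5′ to 3′ along the gene, with the motif in capitals.
Slc7a11, chr3:50443628-50443704, minus strand: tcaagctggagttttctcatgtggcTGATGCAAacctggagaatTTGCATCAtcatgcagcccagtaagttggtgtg
Prdx1, chr4:116685441-116685499, plus strand: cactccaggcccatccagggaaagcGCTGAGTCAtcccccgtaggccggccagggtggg
Gclm, chr3:122245398-122245456, plus strand: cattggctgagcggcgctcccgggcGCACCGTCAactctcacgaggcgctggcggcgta
Txnrd1, chr10:82859089-82859147, plus strand: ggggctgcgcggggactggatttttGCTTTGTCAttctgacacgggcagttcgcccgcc
Srxn1, chr2:152105542-152105571, plus strand: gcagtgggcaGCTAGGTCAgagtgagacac
Nfe2l2, chr2:75704870-75704913, minus strand: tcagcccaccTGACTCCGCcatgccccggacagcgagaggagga
The Slc7a11 window held 2 ATF4 matches on opposite strands, 66 and 47 bases before the start. The ARE matches lay 133 bases before the start in Prdx1, 134 in Gclm, 92 in 1 of 3 Txnrd1 starts and 240 in Nfe2l2. In Srxn1 the match lay 28 bases after the start. The windows of Nqo1 and Mgst2 held neither string of letters. A match is a description of the sequence and not a bound site, and a missing match concerns only this window.

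The libraries differed widely in depth, with 157797 and 322837 reads on day 0, 1365635 and 3852628 on day 4, and 10951745 and 16149088 on day 7. One read of a gene 1 kb long was worth 3.10 to 6.34 RPKM on day 0 but 0.0619 to 0.0913 RPKM on day 7. Genes of odorant and related receptors, 1455 in number and not known for work in marrow, took 1.44% to 1.53% of reads on day 0, 0.149% to 0.762% on day 4 and 0.00391% to 0.00421% on day 7. The 12 macrophage markers summed to 131.9 to 139.8 RPKM on day 0, 144 to 237 on day 4 and 12214 to 12996 on day 7. The 10 neutrophil markers summed to 8469 to 66747, 35194 to 47120 and 89.7 to 94.8 RPKM on the same days, so the day 4 libraries labelled as progenitors held abundant neutrophil RNA. The 9 red cell markers summed to 39430 to 79048, 3732 to 4015 and 23.3 to 44.8 RPKM, with 6 of 9 at 0 in each day 7 library. The 12 dendritic cell markers summed to 2564 to 2753 RPKM on day 7, mostly through Cd74 and H2-Ab1, while Zbtb46, a defining gene of conventional dendritic cells, was at 0.0288 and 0.0283 RPKM. Xcr1 was at 0.528 and 0 RPKM and Flt3 at 1.22 and 1.97 RPKM in those libraries. These 3 genes, named for their role and after their values were seen, were the 3 of the 12 called lower than on day 0. Another 4 were called higher, which were Cd74, H2-Ab1, Itgax (3.53 on the log2 scale, adjusted p = 0.0148) and Irf8 (1.25, adjusted p = 0.0343). On day 0 the 3 lower genes had 10 reads (Zbtb46), 10 (Xcr1) and 18 (Flt3). Zbtb46 (2.40 and 4.91 RPKM) and Xcr1 (3.48 and 7.12) lay below the top 10% of receptor genes, which began at 6.68 and 13.3 RPKM. Flt3 (6.78 and 17.3 RPKM) lay above that level. The day 0 values of Zbtb46 and Xcr1 therefore cannot be told apart from background reads. In such bulk samples fewer cells of a type and less RNA per cell cannot be told apart. The part of cell makeup and depth in the changes below was not tested.

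Between day 0 and day 4 6 of the 10 response genes were called higher and 0 lower. Slc7a11, the cystine transporter, Mgst2, a microsomal glutathione transferase, Srxn1, which repairs peroxiredoxins, and Prdx1, a peroxidase, had the largest fitted differences among them, that of Mgst2 resting on 4 reads on day 0. Nfe2l2 and Gclm, the modifier subunit of glutathione synthesis, rose as well. A call is an adjusted p under 0.05 in limma on log2(RPKM + 1), fitted over 19279 genes, of which 3.66% were called higher and 1.92% lower. All 10 members entered that fit, and all 10 had a positive difference, with a median of 2.30 on the log2 scale. The median over all genes tested was -0.40, and over the 8121 genes averaging 5 RPKM or more it was 0.20. Of those 8121 genes, 8.25% were called higher and 3.35% lower. Both day 4 libraries lay above both day 0 libraries for 9 members, and none lay below. Among all genes tested, 17.9% lay above and 33.3% below in that way. At an unadjusted p under 0.05 limma gave 9 members higher and 0 lower, beside 4896 of the 19279 genes in either direction. Voom on recovered reads called 3 higher and 0 lower, beside 0.602% and 1% of all genes. The call count rests on each day 4 library, since without library I or without library II limma called 0 of 10 members and 0% of all genes. No member difference changed sign in either case. The day 7 libraries enter only through the shared estimate of spread. Without III, or without IV, fewer members and a smaller share of all genes were called.

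Between day 4 and day 7 the members parted. Slc7a11 and Gsr, glutathione reductase, fell, and 0 members were called higher, with Prdx1 just past the threshold at an adjusted p of 0.0504. Over all genes tested, 5.85% were called higher and 6.75% lower. At an unadjusted p under 0.05, limma gave 1 member higher and 4 lower, beside 5631 of the 19279 genes in either direction. Voom called 2 higher and 4 lower, beside 12.4% and 53.9% of all genes. Its lower calls were thus no more frequent among the members than among all genes. The members' median difference was -0.49, that of all genes tested -0.81 and that of the 8121 genes averaging 5 RPKM or more -0.03. Of those 8121 genes, 13.5% were called higher and 13.5% lower. Both day 7 libraries lay above both day 4 libraries for 3 members (Gclm, Srxn1 and Prdx1) and below for 4 (Slc7a11, Nqo1, Gsr and Mgst2), against 19.6% and 57.6% of genes tested. When day 4 library I or II was left out, 1 library stood for that day, and the lower calls among the members and among all genes did not hold. Over the 17 alternatives the fitted difference ranged from -5.64 to -4.10 for Slc7a11 and from -2.39 to -1.38 for Gsr.

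Against marrow before culture, 5 members were higher on day 7: Prdx1, Srxn1, Gclm, Nfe2l2 and Txnrd1, the cytosolic thioredoxin reductase. No member was called lower by limma, none reached an unadjusted p under 0.05 in that direction, and voom called 0. With quantile normalization Gsr was called lower (-1.63, against -0.18 without it). Of all genes tested, 11.3% were called higher and 29.3% lower. The members' median difference was 1.98 and that of all genes -1.14. Over the 8121 genes averaging 5 RPKM or more, 25.9% were called higher and 17.6% lower, at a median of 0.18. Both day 7 libraries lay above both day 0 libraries for 7 members and below for 0, against 19.6% and 50.8% of genes tested. Without day 7 library III, or without IV, fewer members were called higher, and the share of all genes called higher fell too. The comparisons share libraries pairwise, so their values are given side by side and are not independent.

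**Figure D1:**
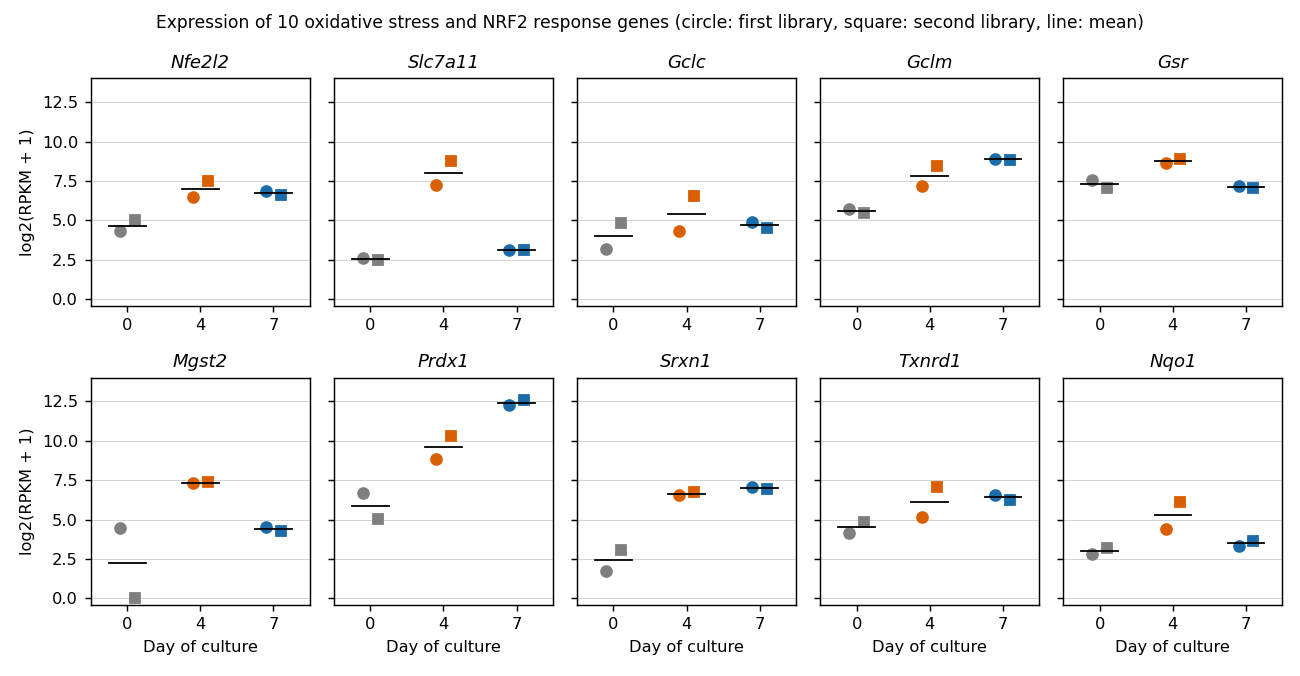
Log2(RPKM + 1) of each of the 10 members by day of culture, with the 2 libraries of a day as a circle and a square and their mean as a line. Slc7a11, Nqo1, Gsr and Mgst2 are highest on day 4 in both libraries, whereas Prdx1 climbs from 31.3 to 100.6 RPKM on day 0 to 4943 to 6059 RPKM on day 7.

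Nfe2l2, which encodes NRF2 itself, was at 18.8 and 31.8 RPKM in the day 0 libraries II and III. It reached 89.1 and 180.0 RPKM in day 4 libraries I and II, and 115 and 95.1 RPKM in day 7 libraries III and IV. Both later days lay above day 0, and days 4 and 7 overlapped. The difference from day 0 was 2.33 ± 0.47 on day 4 (log2 ± SE, adjusted p = 0.032) and 2.05 ± 0.47 on day 7 (adjusted p = 0.0157). From day 4 to day 7 it was -0.27 ± 0.47 (adjusted p = 0.656). The rise to day 4 was called in 7 of 17 alternative analyses and the rise to day 7 in 13. Pooled reads of the day 4 libraries, each day's divided by its library totals as in all such ratios here, gave a ratio of 6.77 to day 0 (95% exact interval 5.0 to 9.42, counting error only). With quantile normalization the day 7 difference from day 0 was 0.97 and not called.

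Keap1, the NRF2 repressor, stood between 6.80 and 13.5 RPKM in the 6 libraries. Bach1, which competes with NRF2 at AREs, had 7.77 and 11.9 RPKM on day 0 and 22.0 and 21.4 RPKM on day 7. Both are named for their role and after their values were seen. Of the 9 regulators of NRF2, 2 rose and 0 fell by day 4, namely Mafg and Sqstm1. Of all genes tested 3.66% rose and 1.92% fell, and of those averaging 5 RPKM or more 8.25% and 3.35%. Mafg, a small MAF partner of NRF2, went from 15.2 and 23.3 RPKM to 116.5 and 170.1 RPKM (2.84 ± 0.40, adjusted p = 0.0122). Sqstm1, the autophagy receptor p62 that binds KEAP1, was at 29.8 and 45.7 RPKM on day 0, 126 and 446 RPKM on day 4 and 466 and 430 RPKM on day 7. It rose by day 4 (2.65 ± 0.61, adjusted p = 0.0468) and was higher on day 7 than on day 0 (3.57, adjusted p = 0.00619). From day 4 to day 7, Maff rose and Mafk fell, both small MAF genes, at 3.46 (adjusted p = 0.0481) and -2.13 (adjusted p = 0.0264) on the log2 scale. The day 4 level of Maff rests on 1 read (0 and 0.144 RPKM), and its day 0 level on 4 reads. No regulator was called lower against day 0, and 3 of 9 were called higher on day 7 (Sqstm1, Mafg and Rbx1). Of all genes tested 11.3% were then called higher and 29.3% lower, and of those averaging 5 RPKM or more 25.9% and 17.6%. The Rbx1 call (4.49 ± 1.23, adjusted p = 0.0251) rests on 14 reads on day 0, at 26.2 and 0 RPKM.

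Slc7a11 encodes xCT, the light chain of the exchanger that brings in cystine for glutathione synthesis in return for glutamate. It was at 5.21 and 4.49 RPKM on day 0, at 148.5 and 433 RPKM on day 4, and at 7.73 and 7.66 RPKM on day 7. Only day 4 was high, and neither day 4 library came near the other 4. The rise was 5.45 ± 0.51 (adjusted p = 0.00711) and the later difference -4.87 ± 0.51 (adjusted p = 0.00105). Day 7 differed from day 0 by 0.57 ± 0.51 (adjusted p = 0.369). Scaled to library totals, pooled reads on day 4 were 72.1 times those of day 0 (95% exact interval 49.6 to 109), from 27 reads on day 0 and 21145 in the deeper day 4 libraries. The rise was called in 14 of 17 alternatives and the fall in 15. On day 0 its level was matched or passed by 23.1% and 47.8% of the receptor genes in libraries II and III, so its expression there cannot be told apart from background reads. Its heavy chain Slc3a2, named for that role, was at 20.2 and 13.2 RPKM on day 0, 63.0 and 125 on day 4, and 115 and 95.2 on day 7. Slc3a2 rose by day 4 (2.37, adjusted p = 0.0267) and its day 7 libraries lay within the day 4 range.

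Gclm and Gclc encode the modifier and catalytic subunits of glutamate cysteine ligase, the first step of glutathione synthesis. Gclm was at 50.6 and 43.1 RPKM on day 0, 141 and 343 RPKM on day 4, and 480.3 and 454 RPKM on day 7. The 3 days did not overlap, and day 7 was highest. Gclm rose by day 4 (2.21 ± 0.51, adjusted p = 0.0464) and was higher on day 7 than on day 0 (3.30 ± 0.51, adjusted p = 0.00416). The first call held in 4 of 17 alternatives and the second in all 17, at 1.82 with quantile normalization. Gclc was at 8.03 and 27.4 RPKM on day 0, 18.7 and 93.2 RPKM on day 4, and 29.3 and 21.7 RPKM on day 7. Its days overlapped and no comparison passed the test (adjusted p = 0.285 for day 4 against day 0, 0.495 for day 7 against day 4 and 0.456 for day 7 against day 0). The level of Gclm per kilobase was 1.57 to 6.30 times that of Gclc on day 0, 3.67 to 7.58 times on day 4, and 16.4 to 20.9 times on day 7. The day 0 ratios rest on 34 Gclm and 16 Gclc reads in all.

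Gsr, which returns oxidized glutathione to its reduced form with NADPH, was the highest member on day 0, at 189 and 130.4 RPKM. It was at 393 and 478 RPKM on day 4 and at 144 and 133 RPKM on day 7. Day 4 stood above both other days, and days 0 and 7 overlapped. The fall from day 4 to day 7 was called (-1.64 ± 0.44, adjusted p = 0.0471, in 9 of 17 alternatives). The difference of 1.46 ± 0.44 between days 0 and 4 was not (adjusted p = 0.0934). Mgst2 was at 21.04 and 0 RPKM on day 0, 158 and 167 RPKM on day 4, and 21.7 and 18.6 RPKM on day 7. On day 0 this was 4 reads in library II and 0 in III, where 3 reads would be 32.3 RPKM. Its rise by day 4 was called (5.12 ± 1.15, adjusted p = 0.0443, in 8 of 17 alternatives), and pooled reads gave a ratio of 11.7 (95% exact interval 4.53 to 43.0). The fitted value was 2.89 without day 0 library III, which had 0 reads, and 7.35 without library II. The difference from day 4 to day 7 was -2.96 ± 1.15 (adjusted p = 0.135, called in 5 of 17 alternatives), and the libraries of these days did not overlap. Its SE takes in the spread of the day 0 pair, since the days share 1 estimate of spread. These 2 genes shared a day 4 peak in level with Slc7a11 and Nqo1.

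Prdx1, a peroxiredoxin that reduces hydrogen peroxide, became one of the most abundant transcripts of the culture. It was at 100.6 and 31.3 RPKM on day 0, 462 and 1278 RPKM on day 4, and 4943 and 6059 RPKM on day 7, where it ranked 5 and 4 among all genes. The days did not overlap. It rose by day 4 (3.75 ± 0.78, adjusted p = 0.0345, in 7 of 17 alternatives) and was higher on day 7 than on day 0 (6.58 ± 0.78, adjusted p = 0.00148, in all 17). Scaled to library totals, the day 7 pooled reads were 69.3 times those of day 0 (95% exact interval 53.0 to 92.5). Among the 6 peroxiredoxins, Prdx1 made up 9.21% and 12.3% of the summed RPKM on day 0, 25.2% and 39.7% on day 4, and 84.5% and 86.0% on day 7. Over the same days the sum itself went from 1092 and 255 to 1834 and 3219 and then to 5849 and 7043 RPKM. The other members of that family took different courses, some with a late rise as well. Prdx4 was higher on day 7 than on day 4 (4.18, adjusted p = 0.00628) and than on day 0 (3.30, adjusted p = 0.0108). Prdx2 rose from day 4 to day 7 (2.48, adjusted p = 0.0415) but was not called against day 0 (0.75, adjusted p = 0.351). Prdx5 was at 576 and 64.5 RPKM on day 0 and at 472 and 451 RPKM on day 7. Prdx6 rose by day 4 (3.12, adjusted p = 0.0249) and fell by day 7 (-2.30, adjusted p = 0.0365).

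**Figure D2:**
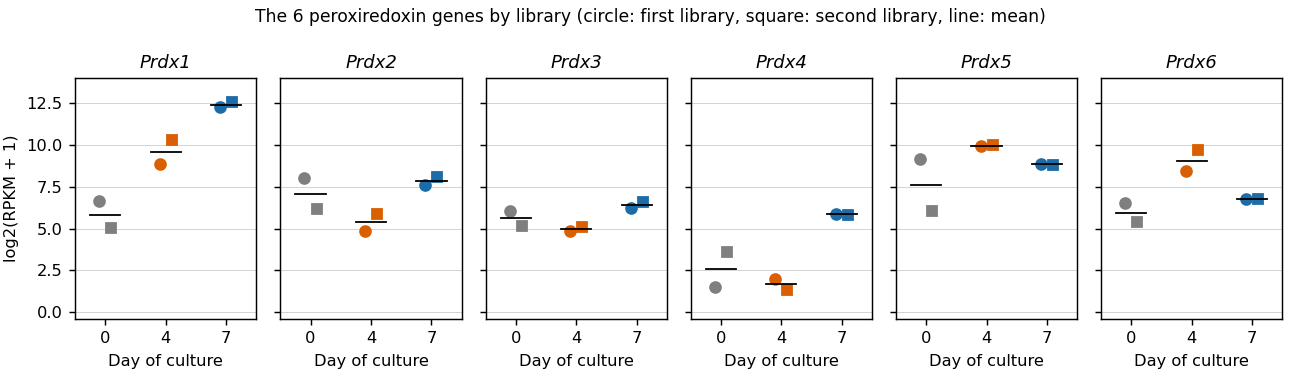
Log2(RPKM + 1) of the 6 peroxiredoxin genes by day of culture, with the 2 libraries of a day as a circle and a square and their mean as a line. Prdx1 takes 9.21% to 12.3% of the sum on day 0 and 84.5% to 86.0% on day 7.

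Srxn1 encodes sulfiredoxin, which restores peroxiredoxins whose cysteine has been overoxidized. It was at 2.40 and 7.36 RPKM on day 0, 92.7 and 105.5 RPKM on day 4, and 133 and 122 RPKM on day 7. Its replicates lay closer together than those of most members once in culture, and both days stood well above day 0. The rises were 4.23 ± 0.47 by day 4 (adjusted p = 0.00721, in 13 of 17 alternatives) and 4.59 ± 0.47 by day 7 (adjusted p = 0.000809, in 16). Its day 0 value rests on 5 reads and was matched or passed by 56.2% and 17.3% of receptor genes in libraries II and III. The pooled ratio of day 4 to day 0 was 25.4 (95% exact interval 10.8 to 78.2). Txnrd1, which keeps thioredoxin reduced, was at 16.7 and 28.3 RPKM on day 0, 34.7 and 135 RPKM on day 4, and 95.2 and 74.8 RPKM on day 7. Day 7 lay within the wide day 4 range. Its difference was 1.61 ± 0.62 on day 4 (adjusted p = 0.156) and 1.91 ± 0.62 on day 7 (adjusted p = 0.0403, in 9 of 17 alternatives) against day 0. The latter was 0.93 and not called with quantile normalization.

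Nqo1, a quinone reductase widely read as a marker of NRF2 activity, was at 5.99 and 8.17 RPKM on day 0, 20.3 and 68.9 RPKM on day 4, and 9.26 and 11.4 RPKM on day 7. Day 4 was highest without overlap. The differences did not pass the test: 2.27 ± 0.57 from day 0 to day 4 (adjusted p = 0.0571) and -1.78 ± 0.57 from day 4 to day 7 (adjusted p = 0.0798). Its day 0 level, from 5 reads, was matched or passed by 21.2% and 15.8% of receptor genes. The pooled ratio of day 4 to day 0 was 8.38 (95% exact interval 3.57 to 25.9).

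**Figure D3:**
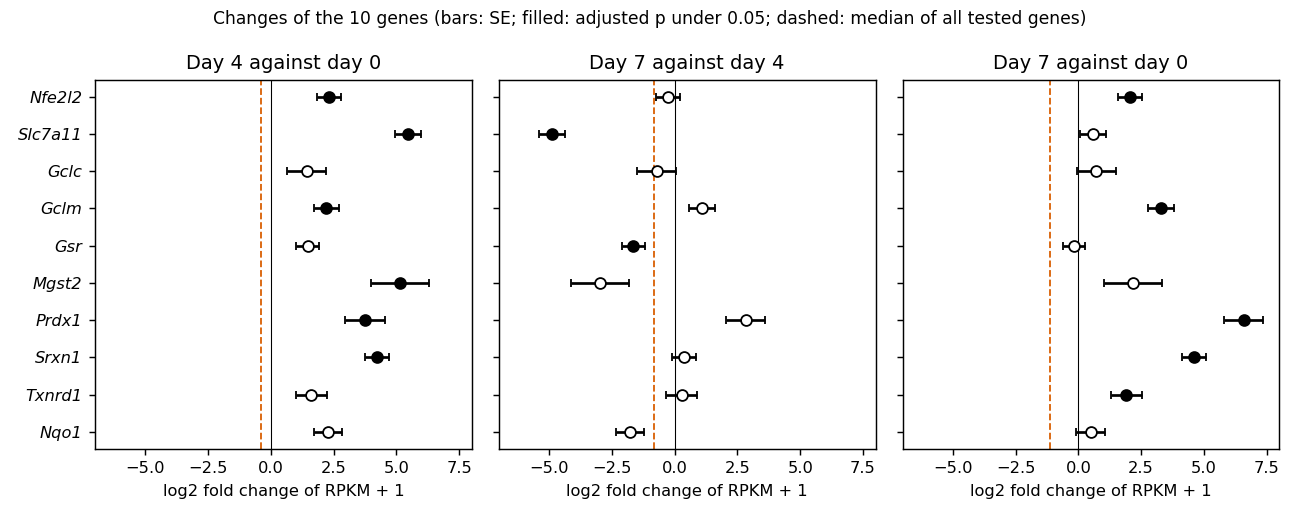
Log2 difference of each member between days (points, bars are standard errors from limma, filled where the adjusted p was under 0.05), with the median of all tested genes as a dashed line. Slc7a11 stands at 5.45 from day 0 to day 4 and at -4.87 from day 4 to day 7, while Prdx1 and Srxn1 lie above 4 from day 0 to day 7.

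On day 4 all 10 members were higher in library II than in library I, with a median log2 difference of 1.37 and a range of 0.08 to 2.26, and 7 differed more than 2-fold. Among the 7193 genes averaging 5 RPKM or more in those libraries, 52.5% were higher in II, the median was 0.04 and 17.6% differed more than 2-fold. On day 7 the members' median was -0.11 and 0 of 10 passed 2-fold, against 4.95% of genes. On day 0 it was 0.11, with 4 of 10 and 33.2% of genes past 2-fold. The widest single gap was on day 0, where the members ranged from -4.46 to 1.65, the low end being Mgst2 with 0 reads in library III. In libraries I and II of day 4 the receptor genes took 0.762% and 0.149% of reads, the neutrophil markers summed to 47120 and 35194 RPKM, the macrophage markers to 237 and 144 RPKM, and the dendritic cell markers to 301 and 61.2 RPKM. The part of these in the difference between both libraries was not tested.

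**Figure D4:**
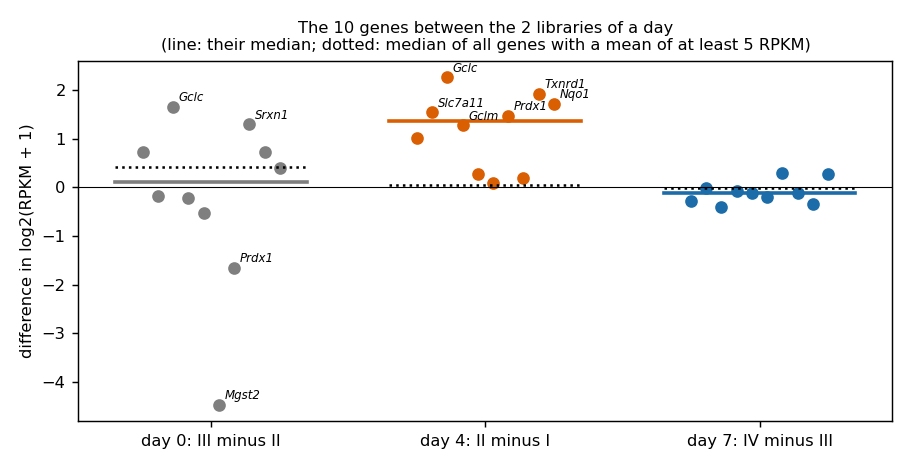
Log2 difference between the 2 libraries of each day for the 10 members (points), with their median as a line and that of all genes averaging 5 RPKM or more as a dotted line. All 10 members are higher in library II on day 4, with a median of 1.37, and the day 7 libraries differ by a median of -0.11.

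Around the members, 66 further genes of the pathway were followed in 7 lists. By day 4, 17 rose and 1 fell, at a median difference of 0.90, beside 3.66% and 1.92% of all genes tested and their median of -0.40. From day 4 to day 7, 14 rose and 4 fell (median 0.27), beside 5.85% and 6.75% of all genes (median -0.81). On day 7 against day 0, 32 were higher and 4 lower (median 1.50), beside 11.3% and 29.3% of all genes (median -1.14). Of the 8121 genes averaging 5 RPKM or more, 8.25% were called higher and 3.35% lower by day 4 (median 0.20). From day 4 to day 7 these shares were 13.5% and 13.5% (median -0.03). On day 7 against day 0 they were 25.9% and 17.6% (median 0.18). Both sets of shares apply to the counts of each list. The calls from day 0 to day 4 rest on both day 4 libraries. With I or II left out, 1 library stood for that day, and the calls among the 66 and among all genes did not hold.

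Among 14 genes of the glutathione cycle and its transferases, 6 rose and 1 fell by day 4. Glrx, glutaredoxin, went from 60.7 and 19.1 RPKM to 472 and 429 RPKM (3.68, adjusted p = 0.0148). Abcc1, an exporter of glutathione conjugates, rose by 3.20 (adjusted p = 0.0146) and Gstm1, a cytosolic transferase, by 2.99 (adjusted p = 0.0389). Mgst3, another microsomal transferase, fell by day 4 (-3.28, adjusted p = 0.0105) and rose by day 7 (5.24, adjusted p = 0.000325). Gpx1, an abundant peroxidase, was at 4031 and 625 RPKM on day 0, 1511 and 1851 on day 4, and 1873 and 2484 on day 7, with a first difference of 0.08 (adjusted p = 0.974). Against day 0, 9 of the 14 were higher and 1 lower on day 7, among them Gpx4, which reduces lipid peroxides, at 4.62 (adjusted p = 0.00538).

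Of 6 genes listed for NADPH supply, 4 rose by day 4 and 0 fell. Pgd of the pentose phosphate pathway went from 86.6 and 30.4 RPKM to 506 and 807 RPKM (3.61, adjusted p = 0.018). G6pdx, the entry enzyme of that pathway, was at 54.5 and 46.0 RPKM on day 0, 174 and 462 RPKM on day 4, and 95.2 and 88.6 RPKM on day 7, with a rise of 2.48 by day 4 (adjusted p = 0.0338). Taldo1 and Tkt, which belong to the branch of that pathway that forms no NADPH itself, are on the list too. Tkt fell from day 4 to day 7 (-2.25, adjusted p = 0.0152). On day 7, 3 of the 6 were higher than on day 0 (Pgd, Taldo1 and Idh1).

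In the thioredoxin and peroxiredoxin list, 1 of 12 genes rose by day 4 (Prdx6) and 3 were higher on day 7 than on day 0. Txn1, thioredoxin, was at 50.1 and 24.1 RPKM on day 0, 105 and 146 RPKM on day 4, and 400 and 372 RPKM on day 7, and was higher on day 7 than on day 0 (3.43, adjusted p = 0.00243). Of the superoxide dismutases and catalase, 0 of 4 were called from day 0 to day 4 by limma or at an unadjusted p under 0.05, and voom called 0, with a median difference of -0.23. By day 7 Sod1, the cytosolic dismutase, had risen from 37.3 and 61.7 to 439 and 487 RPKM (3.24, adjusted p = 0.00234).

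Of 12 other known NRF2 targets, 3 were called higher by day 4 and 10 on day 7 against day 0, with medians of 0.37 and 3.17. Several of the 10 rest on few day 0 reads, such as 3 for Cbr3 and 4 for Cbr1. Hmox1, heme oxygenase, was at 15.7 and 32.2 RPKM on day 0, 374 and 1518 RPKM on day 4, and 880 and 722 RPKM on day 7. It rose by day 4 (5.0 ± 0.70, adjusted p = 0.0123). Akr1b8, an aldo-keto reductase, was at 8.42 and 9.75 RPKM on day 4 and 184 and 211 RPKM on day 7 (4.30, adjusted p = 0.000399). Osgin1, an oxidative stress induced growth inhibitor, rose by day 4 (3.66, adjusted p = 0.012) and fell by day 7 (-1.90, adjusted p = 0.0415). On day 0 Osgin1 had 6 reads (2.36 and 4.83 RPKM), below the top 10% of receptor genes. The ferritin genes Ftl1 and Fth1 reached 11280 and 10370 and 8282 and 7941 RPKM on day 4 but varied between the day 0 libraries, and neither passed the test there (adjusted p = 0.174 and 0.132).

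ATF4 is a stress factor that also drives Slc7a11, so its targets were set beside that gene. Of 9 genes on this list, 1 rose by day 4 and 0 fell. That gene was Ddit3, at 0 and 7.28 RPKM on day 0 and 42.9 and 56.6 RPKM on day 4 (4.13, adjusted p = 0.0357). Its day 0 level rests on 1 read in all. Atf3, a further stress factor of the list, rose from day 4 to day 7 (3.15, adjusted p = 0.0271). On day 7 against day 0, 2 of the 9 were higher and 3 lower. The higher ones were Atf3 (5.04, adjusted p = 0.00315) and Ddit3 (2.72, adjusted p = 0.0385). Atf4 itself was at 55.7 and 33.1 RPKM on day 0 and 35.2 and 96.6 RPKM on day 4 (0.44, adjusted p = 0.657). The serine and asparagine synthesis genes Asns, Psat1 and Phgdh were lower on day 7 than on day 0, by -2.78, -1.82 and -2.67 (adjusted p = 0.00893, 0.0174 and 0.0078, Psat1 being named after its value was seen). The 5 marker lists moved over the same days: from day 4 to day 7, 11 of 12 macrophage genes rose and 10 of 10 neutrophil genes fell, and their part in the pathway counts was not tested.

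**Figure D5:**
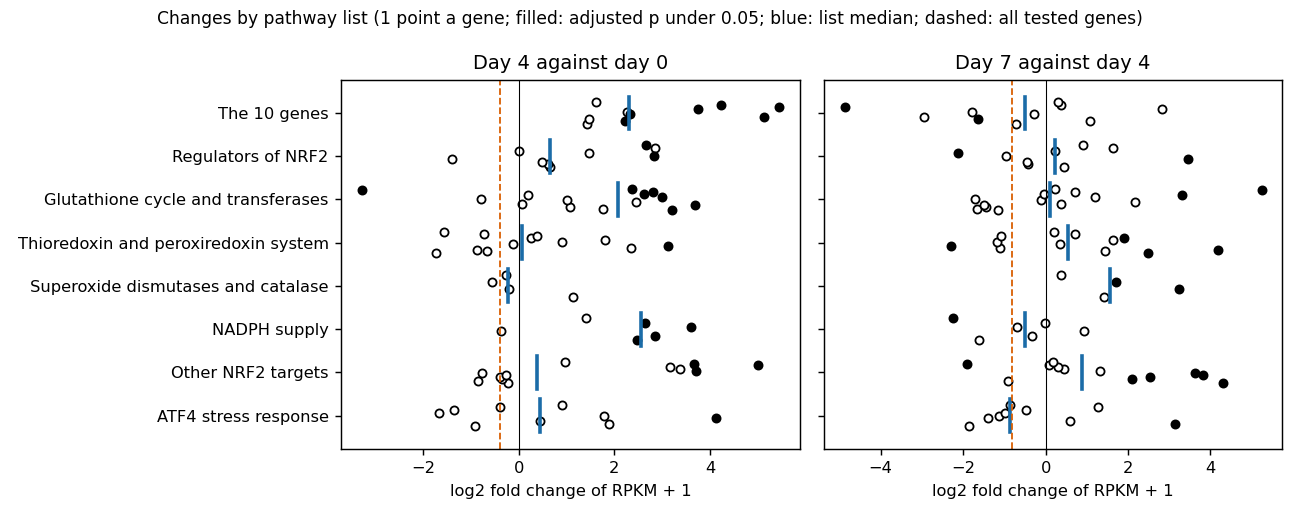
Log2 difference of each gene of the 7 pathway lists and of the 10 members (points, filled where the adjusted p was under 0.05) from day 0 to day 4 and from day 4 to day 7, with list medians in blue and the median of all tested genes dashed. The NADPH supply genes have a median of 2.56 in the first panel and -0.51 in the second.

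Genes with profiles nearest to a member were found by root mean square distance of centred log2(RPKM + 1) over the 6 libraries, among 7717 genes. For Slc7a11 these were Slco4a1 (0.49), Fpr1 (0.70) and Penk (0.93), so no candidate came as near as for most other members. For Nfe2l2 the nearest was Mfsd1 at 0.15, for Srxn1 Plin2 at 0.19, for Gclm Gde1 at 0.18 and for Nqo1 Myd88 at 0.21. For Prdx1 the nearest were Pld3 (0.37) and Lipa (0.41), and for Gsr it was Tbx6 (0.12). Mgst2 had Cep19 at 0.54, Gclc had Brd2 at 0.39 and Txnrd1 had Slc6a6 at 0.24. Distances of low genes are affected by the depth of the day 0 libraries, and the values are a description.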

How the data were processed

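The deposited table gives RPKM per gene and library with exon lengths, per the file headers. The notes list TopHat2 2.0.13, SAMtools 1.1 and mm9 with no stated role, per the submitters' processing notes. What counted the reads, on which annotation and whether by strand, is not given in the sources used here, and overlapping antisense genes cannot be separated. Libraries used RNeasy RNA and the SMARTer v3 and NexteraXT kits, per the labels' protocols. Library totals and reads were recovered from RPKM and length: values were whole reads to within 6.71e-05. Genes with at least 1 RPKM in at least 2 of 6 libraries were tested with limma 3.58.1 (R 4.3.3, trended eBayes) on log2(RPKM + 1), 1 mean per day, two-sided, with Benjamini-Hochberg adjustment. The added 1 RPKM shrinks differences of low genes, but a library at 0 can enlarge them. For Mgst2 from day 0 to day 4 the fitted difference was 34.9-fold, against 15.5 by mean RPKM and 11.7 by pooled reads. The script was tested on simulated data. Intervals (scipy 1.17.1) are exact at 95%, and PCR copies are not independent molecules. The members and lists were chosen with earlier results of these data known. From each pathway list, up to 4 genes of highest mean and up to 3 of smallest adjusted p per comparison could be named. For a profile match up to 3 genes could be named. Of 128 list entries, 126 were found. Coordinates are given only for RefSeq promoters, since the reference at hand (GRCm38.p6) is not mm9. The 17 alternatives varied the pseudocount, filter, scaling, test, depth and libraries.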

Additional observations from a re-analysis of the deposited data

How the results depend on the processing

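The day 0 libraries limit the low members most, with 4 or 5 reads each for Mgst2, Srxn1 and Nqo1. From day 0 to day 4, 6 members were called higher, beside 3.66% of all genes. With a pseudocount of 0.1, no filter or voom 3 were called, beside 2.19%, 2.65% and 0.602%. Without the mean-variance trend or with libraries thinned to the smallest 2 were called, beside 0.768% and 1.98%. With weights per library 0 members and 0% of all genes were called. At an unadjusted p under 0.05, 8 members were then higher, beside 2757 of the 19279 genes in either direction. Leaving out 1 library changed both the count and the share of all genes. From day 4 to day 7, 0 members were called higher, beside 5.85% of all genes. The count was 1 with a pseudocount of 0.1 (5.97%), a filter of 5 RPKM (13.4%) or quantile normalization (2.57%). With weights (5.9%) or only the 4 libraries compared (10.2%) it was also 1, and with voom 2 (12.4%). Members called lower were 2, beside 6.75% of all genes. The count went to 1 with no filter (5.11%), median-ratio scaling (6.92%), no trend (4.56%) or thinning (2.17%). It went to 4 with voom (53.9%) or only the 4 libraries (10.2%). Leaving out 1 library changed these counts and shares as well. From day 0 to day 7, where 5 were called higher, 3 were with quantile normalization (6.28% of all genes, against 11.3%) and 2 with thinning (4.15%). Leaving out 1 day 7 library lowered both the count and the share of all genes. Quantile normalization called 1 lower (Gsr). The cause was not tested. Quantile normalization moved the median of all genes from -0.40, -0.81 and -1.14 to -0.04, 0.04 and -0.01, and median-ratio scaling to -0.29, -0.72 and -0.97. Relative to it the members' median was 2.70, 0.31 and 3.11, then 2.32, -0.93 and 1.30, and 2.75, 0.48 and 3.33. Differences that were not called changed sign as follows. From day 4 to day 7, with quantile normalization, Txnrd1 came to -0.201 and Srxn1 to -0.26. Leaving out day 4 library I and then II gave -0.67 and 1.26 for Txnrd1, -0.78 and 0.23 for Nfe2l2, and -1.84 and 0.42 for Gclc. From day 0 to day 7, Gsr came to 0.25 with median-ratio scaling and Nqo1 to -0.16 with thinning. Leaving out day 0 library II and then III gave 0.0851 and -0.446 for Gsr, -0.11 and 1.54 for Gclc, and 4.40 and -0.0643 for Mgst2. No member difference from day 0 to day 4 changed sign in the 17 alternatives. No paired analysis was possible because any 2 days shared at most 1 replicate numeral.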
